A study of Homo sapiens with 12 samples.

Results

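Glutathione peroxidases reduce hydrogen peroxide and lipid peroxides at the expense of glutathione, and most of the human ones are selenoproteins. A selenoprotein carries selenocysteine, a residue encoded by an in-frame TGA (UGA in the mRNA) that is read through with the help of an element in the 3′ untranslated region, a dedicated transfer RNA and its own elongation factor. Loss of selenium lowers some selenoprotein transcripts far more than others, with GPX1, SELENOW and SELENOH known as sensitive ones and GPX4 as a protected one. In keratinocytes, GPX4 guards against lipid peroxidation and is needed for normal skin and hair in mice.

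The 10 genes described here were GPX1, GPX2, GPX3, GPX4, SELENOT, SELENOW, SELENOH, SELENOK, SELENOF and SELENOM, found by symbol among the 58735 genes of the count table, 29789 of them with a count above 0 in some library. They were chosen by symbol with earlier results from these same 12 libraries in view, and the exact values consulted in that choice are not recorded. The changes with Arg and with time are therefore a description of the 10 genes, and the adjusted p-values below give each gene's place in a fit across all genes and are not independent evidence for the list.

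TIGK cells, gingival keratinocytes immortalised with hTERT and grown as a single line, were kept in an Arg-free base medium with 48 mM glucose in all groups. They received 500 µM L-arginine (Arg) or none (control) for 24 or 48 h, giving 4 groups of 3 libraries, replicates A, B and C. Each library held between 16542243 and 19040964 gene-assigned read pairs from poly(A) RNA sequencing. Levels are given as CPM, the count of a gene relative to its library total and scaled with TMM factors over the 12 libraries, and differences are log2 fold changes with their standard error (SE).

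The keratinocyte label was met by the data, with KRT5 between 24118 and 31695 CPM and KRT14 between 7264 and 11613 CPM. Summed markers of melanocytes, leukocytes and endothelial cells reached at most 3.06, 3.99 and 2.13 CPM in any library. Summed fibroblast markers were higher, between 29.6 and 102 CPM, mostly from DCN and COL1A1. Control replicate B at 48 h stood apart from its group. Of 947 genes called at 24 h, 697 (73.6%) lay nearer in that library to the 48 h Arg mean than to the mean of the other 2 controls, against 157 (16.6%) for replicate A and 153 (16.2%) for replicate C. It also had the highest share of mitochondrially encoded reads, 1.55%, in a set that ran down to 0.624%. Most member fold changes that involve the 48 h control group are given with and without this library, other results only in part. It was singled out by its expression in these same data. Of the 10 members, 5 lay nearer to the 48 h Arg mean in it, against 2 in replicate A and 2 in replicate C. Leaving out replicate B widens the Arg difference for genes where it lay near the Arg libraries. Fits without it are therefore a description, and their adjusted p-values are not independent evidence. In bulk RNA, fewer cells of one kind and less RNA per cell cannot be told apart.

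The selenocysteine codon was located in the Ensembl canonical transcript of each gene (GENCODE v44, GRCh38, the build of the count table), and all 10 reading frames held exactly 1. The sequences are shown for the glutathione peroxidases because the codon and its surroundings form their active site. Each line runs 5′ to 3′ on the coding strand with 21 bases on either side, and the capitals mark the selenocysteine codon.
GPX1: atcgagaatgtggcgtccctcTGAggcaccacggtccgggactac
GPX2: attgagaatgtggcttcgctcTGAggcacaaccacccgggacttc
GPX3: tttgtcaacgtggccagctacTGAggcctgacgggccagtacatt
GPX4: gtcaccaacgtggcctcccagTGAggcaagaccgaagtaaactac
GPX1 and GPX2 shared 37 of these 45 bases (82.2%), whereas GPX1 shared 26 with GPX3 (57.8%) and 28 with GPX4 (62.2%). The codon is residue 49 of 203 in GPX1 (chr3:49358132-49358134, minus strand, exon 1 of 2), 40 of 190 in GPX2 (chr14:64942607-64942609, minus strand, exon 1 of 2), 73 of 226 in GPX3 (chr5:151025469-151025471, plus strand, exon 2 of 5) and 73 of 197 in GPX4 (chr19:1105403-1105405, plus strand, exon 3 of 7).

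A second set is shown because SELENOW, SELENOT, SELENOH and SELENOM are the members with a cysteine codon 3 codons before the TGA, the Cys-X-X-Sec pattern of a thioredoxin-like fold. Here the capitals again mark the selenocysteine codon, and the cysteine codon is the tgt or tgc that begins 9 bases before it.
SELENOW: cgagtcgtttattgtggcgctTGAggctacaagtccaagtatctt
SELENOT: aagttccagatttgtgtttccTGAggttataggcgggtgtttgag
SELENOH: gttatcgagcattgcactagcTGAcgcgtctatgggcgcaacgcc
SELENOM: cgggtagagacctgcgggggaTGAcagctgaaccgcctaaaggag
In SELENOW the codon lies at residue 13 of 87 (chr19:47780732-47780734, plus strand, exon 2 of 6). SELENOT has it at residue 49 of 195 (chr3:150622392-150622394, plus strand, exon 2 of 6), SELENOH at residue 44 of 122 (chr11:57741816-57741818, plus strand, exon 2 of 4) and SELENOM at residue 48 of 145 (chr22:31105951-31105953, minus strand, exon 2 of 5). In SELENOK it is residue 92 of 94, nearly at the end of the protein, and in SELENOF residue 96 of 165 with a cysteine codon 2 codons before it. SELENOW and SELENOT shared 20 of 45 bases (44.4%), so this group is held together by the position of a cysteine codon more than by sequence.

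The genes were expressed over a wide range. Per kilobase of exonic length in the count table, GPX1, the cytosolic peroxidase, was highest with a mean over the 12 libraries of 109 CPM per kb, followed by SELENOF, an endoplasmic reticulum protein, with 66.6 CPM per kb, and GPX4 with 30.5. SELENOT, an endoplasmic reticulum oxidoreductase, followed with 24.9 CPM per kb, SELENOH, a nucleolar protein, with 17.4, and SELENOW, a small cytosolic protein, with 10.2. Lower still were SELENOK, an endoplasmic reticulum membrane protein, with 6.00 CPM per kb, SELENOM, an endoplasmic reticulum protein, with 5.49, and GPX2, the epithelial peroxidase, with 4.32. GPX3, the secreted plasma peroxidase, was lowest with 0.208 CPM per kb and 142 counts over the 12 libraries. The library ranges of each gene and the next in this order overlapped, except between SELENOF and GPX4 and between GPX2 and GPX3. SELENOK (4.55 to 8.38 CPM per kb), SELENOM (3.98 to 7.11) and GPX2 (2.56 to 5.99) overlapped one another. The order depended on the length used. Per kilobase of canonical transcript, SELENOW came to 71.0 CPM, next to GPX4 with 72.4, SELENOH (33.7) passed SELENOT (29.9), and SELENOM (25.2) passed SELENOK (8.67).

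**Figure D1:**
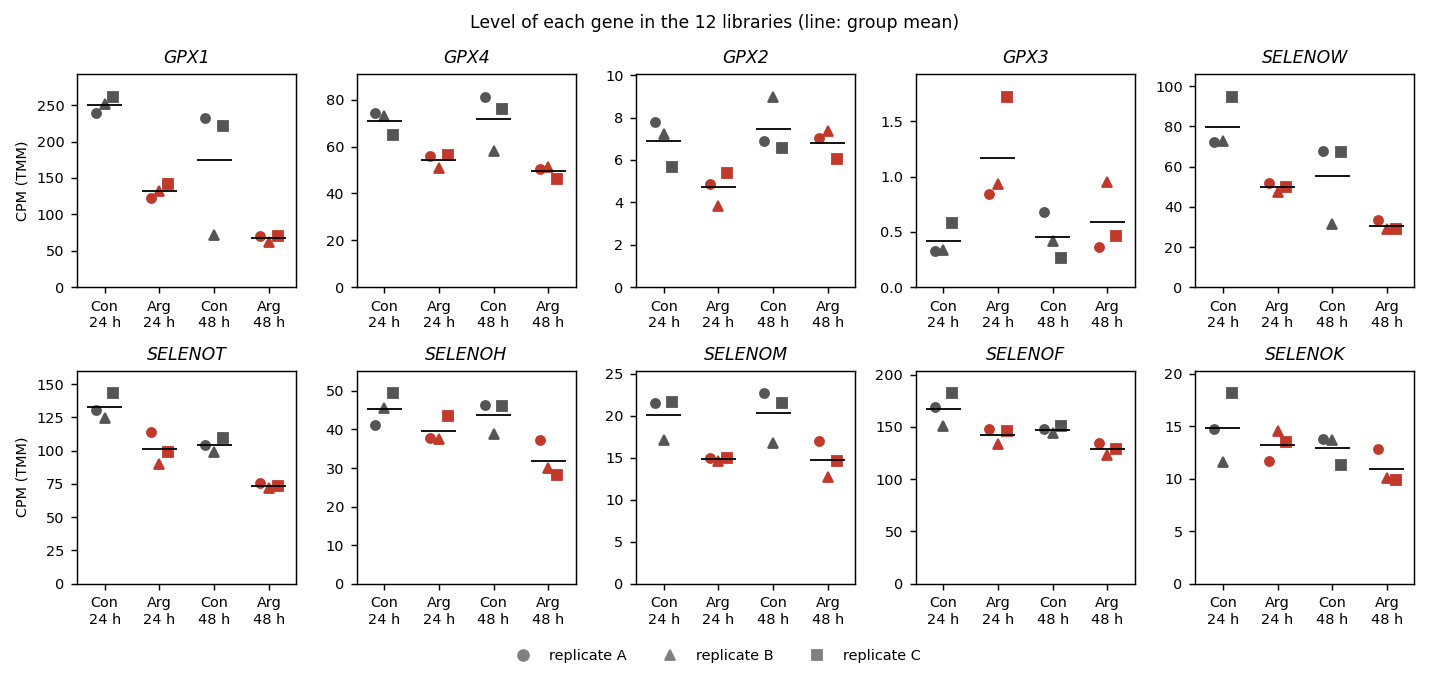
Level of the 10 genes in each library, in CPM scaled with TMM factors on linear axes that start at 0. The 4 groups run along the horizontal axis, symbols mark replicates A, B and C and lines the group means. GPX1 and SELENOW fall in steps, with the 48 h Arg libraries near 67.8 and 30.3 CPM, and the 48 h control replicate B sits with the Arg libraries in both panels.

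The first question was how Arg treatment changed these genes after 24 h in high glucose. GPX1 and SELENOW were the most reduced, and GPX4, SELENOT and SELENOM were also called lower, so that 5 of the 10 genes passed an adjusted p under 0.05 downwards and 0 upwards. Across all 14279 genes tested, 3.84% were called lower and 2.79% higher. The median log2 fold change of the 10 genes was -0.39, beside 0.0030 for all genes tested, and 9 of the 10 lay below 0. In 7 genes every Arg library lay below every control library, beside 13.4% of all genes tested. The share of mitochondrially encoded reads was also lower in these Arg libraries (0.624% to 0.802%) than in their controls (1.20% to 1.30%). With those genes left out of the fit, each of the 10 genes kept its side of the threshold. So small a share of reads could change the fit little, and any part of it in the changes was not tested. The lower share under Arg did not hold at 48 h, with 1.14% to 1.31% under Arg and 0.906%, 1.55% and 0.707% in controls A, B and C.

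GPX1 (ENSG00000233276, chr3:49357171-49358600, minus strand), which the table's annotation types as a polymorphic pseudogene although it encodes the main cytosolic peroxidase, measured 239, 252 and 261 CPM in the 24 h controls A, B and C. With Arg it measured 122, 132 and 142 CPM. All Arg libraries lay below all controls, with a gap far wider than the spread within either group. The means were 251 ± 11.1 and 132 ± 9.92 CPM (SD, n = 3), a log2 fold change of -0.93 (SE 0.081, adjusted p = 2.33e-06), the 9th smallest p of all genes tested. Its processed pseudogene GPX1P1 drew 48 counts beside 34025 for GPX1.

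SELENOW (ENSG00000178980, chr19:47778572-47784686, plus strand), which is named for its place in white muscle disease of selenium-poor livestock, stood at 72.3, 72.7 and 94.7 CPM in the controls. Under Arg it stood at 51.7, 47.5 and 49.9 CPM. The groups did not overlap, although control replicate C was well above the other 2. The log2 fold change was -0.69 (SE 0.11, adjusted p = 0.000797). GPX1 and SELENOW were also the members called whichever of the 6 libraries was left out, with log2 fold changes of -0.98 to -0.88 for GPX1 and -0.75 to -0.55 for SELENOW.

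GPX4 (ENSG00000167468, chr19:1103926-1106791, plus strand), the peroxidase of phospholipid hydroperoxides, went from 74.5, 73.1 and 65.0 CPM in the controls to 56.0, 50.7 and 56.5 CPM with Arg. Its log2 fold change was -0.38 (SE 0.091, adjusted p = 0.0174). The call was lost without control replicate A (adjusted p = 0.102), Arg replicate B (0.0986) or Arg replicate C (0.0559). The groups did not overlap. The fold change was smaller in size than those of GPX1 and SELENOW but larger than that of SELENOH (-0.20). With all libraries at 48 h, SELENOH (-0.46) again changed less than GPX4 (-0.54). These differences between genes were not tested.

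SELENOT (ENSG00000198843, chr3:150602875-150630445, plus strand) went from 131, 124 and 143 CPM to 114, 90.0 and 98.9 CPM, a log2 fold change of -0.40 (SE 0.095, adjusted p = 0.0175). This call was lost without control replicate A (adjusted p = 0.0654) or C (0.0907) and without Arg replicate B (0.108) or C (0.0866). SELENOT shares 354 bases with SERP1 on the other strand, and the kit named in the labels is not stated to keep strand. SERP1 itself had a log2 fold change of -0.11 (adjusted p = 0.504) with Arg at 24 h.

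SELENOM (ENSG00000198832, chr22:31104772-31120069, minus strand) measured 21.6, 17.2 and 21.7 CPM in the controls and 15.0, 14.6 and 14.9 CPM with Arg. The Arg libraries were nearly level and below all controls. With a log2 fold change of -0.44 (SE 0.13) its adjusted p was 0.0495, just inside the threshold, and in 5 of the 10 alternative fits that left out no library it was just outside, between 0.0504 and 0.0674. Only without control replicate B did the call remain among the 6 fits that left out 1 library. Without control A, control C, Arg A, Arg B and Arg C its adjusted p was 0.195, 0.179, 0.0679, 0.149 and 0.139.

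The remaining genes did not pass the test at 24 h. SELENOF, with 169, 151 and 182 CPM in the controls and 148, 133 and 146 CPM with Arg, had a log2 fold change of -0.23 (adjusted p = 0.122), and it passed without control replicate B (adjusted p = 0.0278). SELENOH, at 41.3, 45.6 and 49.4 CPM against 37.8, 37.5 and 43.6 CPM, had -0.20 (adjusted p = 0.256) with overlapping groups. SELENOK, between 11.6 and 18.1 CPM in these libraries, had -0.17 (adjusted p = 0.583). GPX2, at 7.80, 7.23 and 5.68 CPM in the controls and 4.89, 3.84 and 5.37 CPM with Arg, had -0.55 (SE 0.21, adjusted p = 0.119). Its whole span of 3754 bases lies within CHURC1 on the other strand, which drew 2799 counts beside 1413 for GPX2, so reads of the pair may be mixed. CHURC1 had a log2 fold change of 0.10 (adjusted p = 0.728).

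GPX3 was the member with a higher value in all Arg libraries at 24 h. Its levels were 0.325, 0.339 and 0.579 CPM in the controls and 0.843, 0.932 and 1.72 CPM with Arg, each resting on 5 to 32 counts per library over the series. The log2 fold change was 1.48 (SE 0.51, adjusted p = 0.0892). At this depth it did not pass the test.

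**Figure D2:**
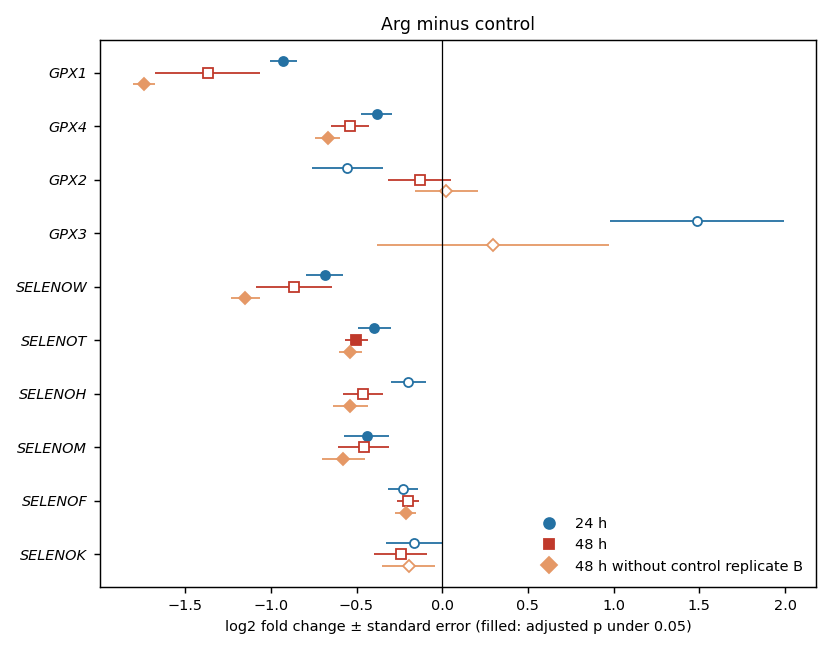
Difference between Arg and control for each gene, as the log2 fold change (horizontal axis) with bars of 1 SE, at 24 h, at 48 h and at 48 h without control replicate B. Filled symbols have an adjusted p under 0.05: 5 genes at 24 h, SELENOT alone at 48 h, and 7 genes at 48 h once that replicate is left out. GPX3 has no value at 48 h with all libraries because it did not pass the filter on low counts.

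After 48 h of Arg, 9 of the 10 genes could be tested and GPX3 fell below the filter on low counts. All 9 had a negative log2 fold change, with a median of -0.46 beside 0.0018 for all genes tested, and in 5 the groups did not overlap downwards, beside 8.51% of all genes. SELENOT was the only member that passed the test, against 0.117% of 14562 genes called lower and 0% called higher. Without control replicate B, 7 members were called lower and 0 higher. In that fit 8.17% of all 14854 genes were called lower and 7.76% higher, and the median of the 10 genes, all of them tested there, was -0.54.

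SELENOT stood at 104, 98.7 and 109 CPM in the 48 h controls and at 75.5, 71.6 and 73.6 CPM with Arg. Control replicate B lay close to its group for this gene. The log2 fold change was -0.50 (SE 0.069, adjusted p = 0.0150) with all libraries and -0.54 (adjusted p = 4.53e-06) without that replicate. The call was lost without any 1 of the other 5 libraries, with adjusted p of 0.109 without control A, 0.0807 without control C, and 0.0721, 0.206 and 0.148 without Arg A, B and C. SERP1, on the other strand, had a log2 fold change of -0.027 (adjusted p = 0.895).

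GPX1 measured 232, 71.4 and 222 CPM in the 48 h controls and 70.0, 62.6 and 70.8 CPM with Arg. Control replicate B was less than 1 CPM above the highest Arg library, while the other 2 controls were far above all Arg libraries. With all libraries the log2 fold change was -1.37 (SE 0.31, adjusted p = 0.133). Without replicate B the controls averaged 227 CPM, and the fold change was -1.74 (SE 0.065, adjusted p = 2.57e-14). The larger difference and smaller SE follow in part from leaving out the control that lay near the Arg libraries.

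SELENOW followed the same pattern, with 67.5, 31.2 and 67.1 CPM in the controls and 33.3, 28.8 and 28.8 CPM with Arg. Its control replicate B lay inside the range of the Arg libraries. The log2 fold change was -0.87 (SE 0.22, adjusted p = 0.160) with all libraries and -1.15 (SE 0.084, adjusted p = 1.58e-09) without replicate B.

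With all libraries GPX4 and SELENOH were not called, and without control replicate B they were. The SE went from 0.11 to 0.074 for GPX4 and only from 0.12 to 0.10 for SELENOH. Between these fits the share of all genes called lower also went from 0.117% to 8.17%. GPX4 stood at 81.2, 58.2 and 76.0 CPM in the controls and 50.6, 51.4 and 46.4 CPM with Arg, with a log2 fold change of -0.54 (adjusted p = 0.118) and -0.67 (adjusted p = 1.24e-06) without replicate B. SELENOH, at 46.3, 39.0 and 46.1 CPM against 37.3, 29.9 and 28.1 CPM, had -0.46 (adjusted p = 0.157) and -0.54 (adjusted p = 0.000774). Both genes had groups that did not overlap even with replicate B included.

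SELENOM, at 22.7, 16.7 and 21.5 CPM in the controls and 17.1, 12.7 and 14.6 CPM with Arg, had a log2 fold change of -0.46 (adjusted p = 0.228) and of -0.58 (adjusted p = 0.00273) without replicate B. SELENOF, at 148, 144 and 151 CPM against 135, 123 and 129 CPM, had -0.20 (adjusted p = 0.227) and -0.21 (adjusted p = 0.0192). SELENOF is the gene whose fold change moved least between these fits.

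SELENOK and GPX2 were called in neither fit. SELENOK had a log2 fold change of -0.24 (adjusted p = 0.522) and of -0.20 (adjusted p = 0.431) without replicate B. GPX2 stood at 6.87, 8.97 and 6.54 CPM in the controls and 7.04, 7.38 and 6.05 CPM with Arg, with -0.13 (adjusted p = 0.788) and 0.024 (adjusted p = 0.948). GPX3 held 0.682, 0.415 and 0.268 CPM against 0.365, 0.953 and 0.461 CPM, with overlapping groups and, without replicate B, a log2 fold change of 0.30 (SE 0.68, adjusted p = 0.822).

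Whether the Arg effect differed between 24 and 48 h was tested as an interaction over the 12 libraries. No member passed (0 of 10, and also 0 at an unadjusted p under 0.05 and 0 by DESeq2), beside 0% of 15148 genes called lower and 0.0132% called higher. For GPX1 the difference in log2 fold change, 48 h minus 24 h, was -0.44 (SE 0.34, adjusted p = 0.861), and for SELENOW -0.18 (SE 0.27, adjusted p = 0.944). Without control replicate B at 48 h, GPX1 was the member called, with -0.82 (SE 0.11, adjusted p = 0.00018), where 0.116% of 15508 genes were called lower and 0.181% higher. SELENOW then had -0.47 (SE 0.15, adjusted p = 0.262). Both values depend on leaving out a library that was singled out by its expression in these same data.

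The change from 24 to 48 h was also compared within each treatment. These comparisons share libraries with those above. Summed fibroblast markers, 6 genes, lay between 29.6 and 53.4 CPM at 24 h and between 71.9 and 102 CPM at 48 h, nearly all of it DCN and COL1A1, while COL1A2, COL3A1 and PDGFRA stayed at or under 0.269 CPM, and the part of these cells or genes in the changes below was not tested. With Arg, 4 members fell, GPX1, SELENOW, SELENOT and SELENOH, and GPX2 rose, where 14% of 14398 genes were called lower and 14.3% higher, and 4 members lay wholly lower at 48 h beside 21.2% of all genes. GPX1 dropped from a mean of 132 ± 9.92 to 67.8 ± 4.52 CPM (SD, n = 3), a log2 fold change of -0.96 (SE 0.080, adjusted p = 6.47e-08). SELENOW dropped from 49.7 ± 2.12 to 30.3 ± 2.61 CPM, a log2 fold change of -0.71 (adjusted p = 1.12e-05), and SELENOT from 101 ± 12.1 to 73.6 ± 1.92 CPM, a log2 fold change of -0.45 (adjusted p = 0.000459). These 3 calls remained whichever library was left out. SERP1, which overlaps SELENOT on the other strand, was called lower too, with -0.27 (adjusted p = 0.0152).

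SELENOH had a log2 fold change of -0.31 (adjusted p = 0.0355) between 24 and 48 h with Arg. The call was lost without Arg 24 h replicate C (adjusted p = 0.155), Arg 48 h replicate B (0.138) or Arg 48 h replicate C (0.171). GPX2 rose from 4.70 ± 0.782 to 6.82 ± 0.694 CPM, a log2 fold change of 0.54 (SE 0.20, adjusted p = 0.0476), and the call remained only without Arg 24 h replicate C (adjusted p = 0.0408), with 0.0652 and 0.170 without Arg 24 h A and B and 0.124, 0.149 and 0.0501 without Arg 48 h A, B and C. CHURC1, which spans GPX2 on the other strand, moved the same way, with 0.27 (adjusted p = 0.175). GPX4, SELENOM, SELENOF and SELENOK did not pass, with log2 fold changes of -0.14, -0.0027, -0.15 and -0.27. GPX3 had -0.99 (SE 0.51, adjusted p = 0.162).

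Without Arg, SELENOT was the member called lower at 48 h, with a log2 fold change of -0.35 (SE 0.081, adjusted p = 0.0126), and none was called higher, where 10% of 14449 genes were called lower and 9.9% higher. Groups were apart downwards for 4 members, beside 19.7% of all genes. The SELENOT call was lost without control 24 h replicate A (adjusted p = 0.0551) or C (0.0687). Its neighbour SERP1 was called lower too, with -0.35 (adjusted p = 0.00730).

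GPX1 had a log2 fold change of -0.52 (SE 0.30, adjusted p = 0.251) from 24 to 48 h without Arg, and SELENOW -0.53 (SE 0.23, adjusted p = 0.120). Without control replicate B these became -0.14 (adjusted p = 0.199) and -0.24 (adjusted p = 0.153), so most of the difference in GPX1 came with that library. SELENOT then had -0.31 (adjusted p = 0.0200) and was again the only member called, where 8.6% of 14749 genes were called lower and 7.81% higher. SELENOF had -0.18 (adjusted p = 0.148) with all libraries and was called without control 24 h replicate B (-0.25, adjusted p = 0.0350). Without control 48 h replicate B it had -0.16 (adjusted p = 0.217). GPX4, SELENOM and SELENOH had 0.021, 0.014 and -0.050 with all libraries and 0.15, 0.14 and 0.027 without control 48 h replicate B. GPX2 and SELENOK had 0.11 and -0.20, then -0.040 and -0.24. GPX3 was tested only without that replicate (0.21, SE 0.68). None of these other genes was called in either fit.

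**Figure D3:**
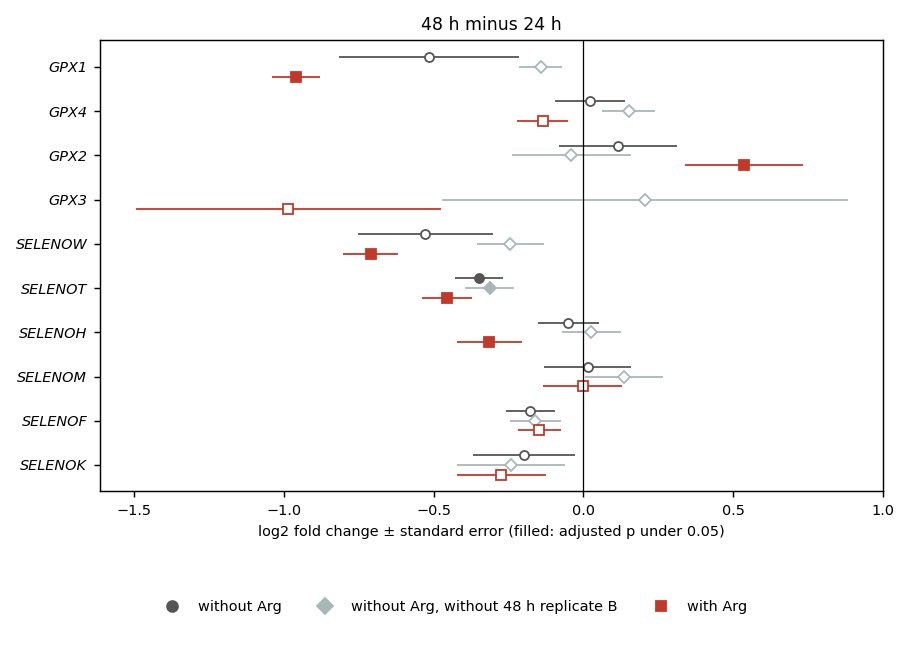
Change from 24 to 48 h in each gene, as the log2 fold change (horizontal axis) with bars of 1 SE, without Arg, without Arg and without control 48 h replicate B, and with Arg. Filled symbols have an adjusted p under 0.05. With Arg, GPX1 and SELENOW sit at -0.96 and -0.71 with short bars, whereas without Arg their long bars shorten and move towards 0 once replicate B is left out.

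Over the 12 libraries the genes did not all move alike. Among the 28 pairs of the 8 members other than GPX2 and GPX3, Pearson's r of log2 CPM ran from 0.32 to 0.98 with a median of 0.78. In the 17 pairs that involve GPX2 or GPX3 it ran from -0.56 to 0.35. GPX1 and SELENOW made the closest pair, with r of 0.98, and SELENOT and SELENOF had 0.94. All points share groups, preparation and depth, and the values are a description.

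Outside the 10 genes and the pathway lists, the gene most like GPX1 by the same measure among 15108 was FOXC2, a transcription factor, with r of 0.98 over 12 libraries. SELENOW was most like SLC25A11, the mitochondrial oxoglutarate carrier, with r of 0.98, and SELENOT most like FDX1, ferredoxin 1, with 0.97. GPX4 was most like OAT, ornithine aminotransferase, with 0.94. The nearest genes were TBCA for SELENOF (0.96), SDHAF2 for SELENOH (0.95), S100A4 for SELENOM (0.93), ANKRD22 for GPX2 (0.92), ZNF511 for SELENOK (0.91) and AC097359.2 for GPX3 (0.87).

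The other genes of the pathway gave the setting of these reductions. Of 35 such genes, 29 were tested at 24 h, and 0 were called lower and 5 higher with Arg. Of all 14279 genes tested, 3.84% were called lower and 2.79% higher, so the 0 lower is near the share over all genes. The other selenoproteins, 15 genes of which 10 were tested, had 1 call, TXNRD1, the cytosolic thioredoxin reductase, which rose from 279 ± 7.67 to 352 ± 54.7 CPM (SD, n = 3), a log2 fold change of 0.33 (adjusted p = 0.0414). The others with the highest levels, SEPHS2, SELENOI, SELENON and TXNRD2, had log2 fold changes of 0.25, -0.16, 0.22 and 0.18 and did not pass. The TXNRD1 call was lost without control A (adjusted p = 0.108), control C (0.134), Arg A (0.118) or Arg B (0.0701). The median over the list was 0.12, where that of the 10 genes was -0.39, and the difference between the lists was not tested.

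The genes that make and insert selenocysteine, 10 of 10 tested, had 1 call higher and 0 lower at 24 h, beside 2.79% and 3.84% of all genes. EEFSEC, the elongation factor that delivers selenocysteyl-tRNA, rose from 7.84 ± 0.153 to 13.4 ± 1.83 CPM, a log2 fold change of 0.77 (SE 0.16, adjusted p = 0.00611). The call was lost without Arg replicate C (adjusted p = 0.0521). SECISBP2, which binds the element in the 3′ untranslated region, had -0.032 (adjusted p = 0.920). Of the 3 glutathione peroxidase homologues that use cysteine, GPX7 and GPX8 were tested and had 0.074 and 0.26 without passing, and GPX5 drew next to no reads.

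The glutathione supply genes, 7 of 7 tested, had 3 calls higher and 0 lower at 24 h, beside 2.79% and 3.84% of all genes. GCLC, the catalytic subunit of glutamate-cysteine ligase, rose from 90.8 ± 8.30 to 136 ± 12.4 CPM, a log2 fold change of 0.58 (adjusted p = 0.00098). SLC7A11, the cystine transporter, had 0.57 (adjusted p = 0.00474) and GSR, glutathione reductase, 0.35 (adjusted p = 0.0297). The GCLC and SLC7A11 calls remained whichever library was left out, while that of GSR remained only without control replicate B (adjusted p of 0.0502 to 0.165 without any of the others). GCLM, the modifier subunit of the ligase, had 0.0017 (adjusted p = 0.996). Thus the enzymes that supply and recycle glutathione included genes that rose in the libraries where GPX1 and GPX4 fell.

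At 48 h, 0 of 30 tested pathway genes were called in either direction by edgeR (1 lower and 4 higher at an unadjusted p under 0.05, and 1 higher by DESeq2). Of all genes tested, 0.117% were called lower and 0% higher, so few calls were to be had. GCLC had a log2 fold change of 0.60 (SE 0.20, adjusted p = 0.235) and SLC7A11 0.47 (adjusted p = 0.157). Without control replicate B, GCLC had 1.01 (adjusted p = 5.38e-11), SLC7A11 0.66 (adjusted p = 3.41e-07), SECISBP2 0.51, LRP8, a receptor for selenoprotein P, 0.37 and GSR 0.22, all called higher. SELENOO, a mitochondrial pseudokinase, was then called lower with -0.46 (adjusted p = 0.0116). In that fit, 8.17% of all 14854 genes were called lower and 7.76% higher.

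From 24 to 48 h without Arg, TXNRD1 (-0.21), SELENOI (-0.28) and SCLY (-0.75) were called lower and GSR (0.57) higher. These 3 and 1 of 29 tested pathway genes were a share near the 10% of all genes called lower and below the 9.9% called higher. Without control 48 h replicate B, SCLY was not called (-0.58, adjusted p = 0.0800), while TXNRD2, the mitochondrial thioredoxin reductase, was called higher (0.32, adjusted p = 0.0419) and GCLM lower (-0.36, adjusted p = 0.0296). With Arg, 4 of 29 tested pathway genes were called lower and 5 higher, shares near the 14% and 14.3% of all genes. Of these, TXNRD1 (-0.49), EEFSEC (-0.44), SEPHS1 (-0.34) and SCLY (-0.86) were called lower. MSRB1 (0.32), LRP8 (0.33), GCLC (0.63) and GSR (0.34) were among those called higher with Arg. SCLY, selenocysteine lyase, which frees selenium from selenocysteine, was thus called lower with time in both treatments when all libraries were used. With 1 library left out in turn, the calls of GSR in both treatments and of GCLC, TXNRD1, SEPHS1 and SCLY with Arg remained in all 6 fits. Calls remained in 3 of 6 fits for SELENOI without Arg, in 2 for TXNRD1 and SCLY without Arg and EEFSEC with Arg, and in 1 for MSRB1 and LRP8.

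**Figure D4:**
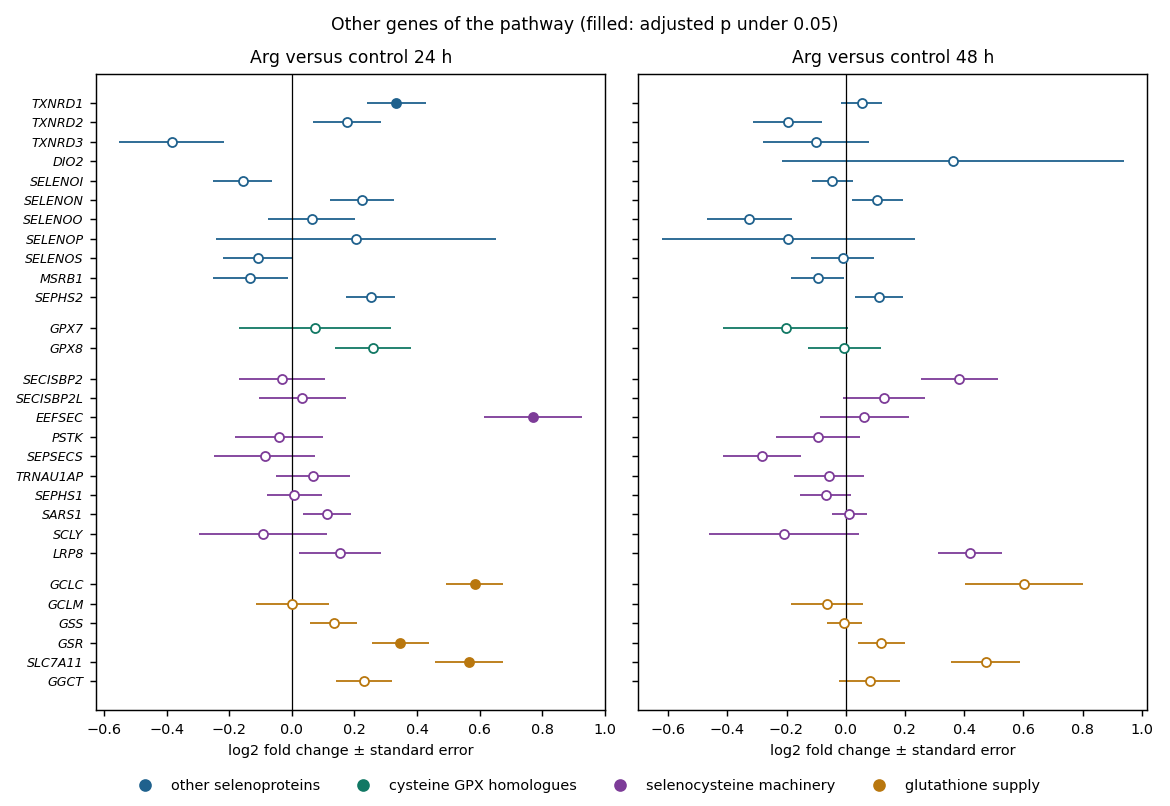
Difference between Arg and control for other genes of the pathway at 24 h (left) and 48 h (right), as the log2 fold change with bars of 1 SE, coloured by list. Filled symbols have an adjusted p under 0.05: TXNRD1, EEFSEC, GCLC, GSR and SLC7A11 at 24 h, all to the right of 0, and none at 48 h.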

How the data were processed

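The raw counts were deposited as 1 table of all 12 libraries. Per the submitters' processing notes and the study's methods, the authors used fastp for trimming, STAR for alignment to GRCh38 (hg38) and featureCounts for the gene counts. Annotation release and strand setting are not given in the sources used here. Low counts were removed with filterByExpr, TMM factors computed, and each pair of groups fitted with edgeR 4.0.16 (R 4.3.3) by the quasi-likelihood test with Benjamini-Hochberg adjustment over all tested genes and a threshold of 0.05. The interaction was fitted over all libraries. DESeq2 1.42.0 was an alternative. The script was tested on simulated data. CPM per kb used the exonic length in the table. The members and lists were chosen with earlier results of these data known. The text names all members, the list genes that passed (1 list gene is counted but not reported here), up to 4 others with the highest CPM, and the gene most correlated with each member. GPX5 and further pathway genes without a call were named after their values were seen. The methods give 3 replicates per condition in plate wells without saying that they were separate cultures, so p-values measure the spread between these samples, which may be technical. The largest chi-square per degree of freedom between replicates involved control 48 h replicate B, and no pair agreed within sampling noise. Alternatives were the tool, scaling, filter, a 12-library model, a replicate block, a length correction, dropping mitochondrially encoded genes, and fits without each library in turn (for the pathway lists chosen after seeing the data).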

Additional observations from a re-analysis of the deposited data

How the results depend on the processing

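Of 815 refits of single member fold changes, 745 kept their side of the threshold, 39 lost and 31 gained a call, and 31 had the opposite sign, none of them for a value called in either fit. Leaving out each library gave 2 to 6 members called lower with Arg at 24 h (5 with all libraries), 0 to 7 at 48 h (1), 0 to 2 for 48 against 24 h without Arg (1), 0 to 1 called higher with Arg over time (1), and 0 to 1 called lower in the interaction (0). In the same fits, all genes called lower ran from 233 to 882 at 24 h (549) and 5 to 1213 at 48 h (17). Over time they ran from 406 to 1719 lower without Arg (1451) and 1535 to 1838 higher with Arg (2060). At 48 h, members called lower with Arg numbered 3 by DESeq2, 6 without the filter on low counts, 3 with the 12 libraries in one model, 5 with the replicate block and 4 with length correction and block. All genes called at 48 h, 17 lower and 0 higher, became 144 and 40 by DESeq2, 374 and 199 without the filter, 37 and 4 in the 12-library model, 141 and 43 with the replicate block, and 99 and 24 with length correction and block. Over time without Arg, 3, 2, 3 and 2 members were called lower without the filter, in the 12-library model, with the block, and with length correction and block. All genes called lower there numbered 1735, 1877, 2075 and 2156, beside 1451 in the main fit. GPX2's rise over time with Arg was lost (0 called) by DESeq2, without the filter, in the 12-library model and with the block. Scaling by library size alone changed the split over time with Arg from 2012 lower and 2060 higher to 1453 and 2568, and SELENOH was then not called (adjusted p = 0.0843), nor with length correction (0.109) or length correction and block (0.126). The cause of these changes was not tested.

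Same-lettered libraries did not deviate together (correlations of -0.061 to 0.13), so the replicate block is given here only. With it, GPX1 at 48 h had -1.21 (adjusted p = 0.00319), SELENOW -0.80 (0.00838), and SELENOM at 24 h lost its call (0.0628), as it did with library size only (0.0506), at least 10 counts in every library (0.0504), the 12-library model (0.0649), and length correction and block (0.0674). Among pathway genes the block gave 2 called higher at 48 h (0 without it) and 4 over time without Arg (1), and DESeq2 gave 1 at 48 h. All genes called higher were then 43 (0), 1969 (1431) and 40. GPX2 and GPX3 rest on few counts, and their levels are the least precise. Leaving out each library, a choice made after seeing the data for these lists, gave 3 to 5 pathway genes called higher with Arg at 24 h (5 with all libraries), and at 48 h 0 to 1 lower and 0 to 5 higher (0 and 0). Over time the same fits gave 0 to 4 lower (3) and 1 to 2 higher (1) without Arg, and 2 to 5 higher (5) with Arg. All genes called higher in these fits ran from 126 to 647 at 24 h (398) and 0 to 1152 at 48 h (0). Over time without Arg they ran from 422 to 1585 (1431).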
